A study of Bos taurus with 111 samples.

Results

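LYZ (ENSBTAG00000026779), CSF3R (ENSBTAG00000013334), S100A12 (ENSBTAG00000012638) and PLEK (ENSBTAG00000009658) are transcripts known from myeloid cells that were measured in bovine skeletal muscle. Which cells they came from in these biopsies was not tested. The transcripts were chosen by identifier, 4 of the 24616 annotated genes. The rule holds no measured level, but all 4 stand in the study's own gene lists, which were drawn from these libraries. The muscle was M. longissimus thoracis et lumborum, sampled by biopsy from Charolais (CH) and Holstein-Friesian (HF) steers. The CH steers began the trial at 283 d of age (SD 18.3) and 395 kg, and the HF steers at 306 d (SD 7.7) and 294 kg. Every steer passed through feeding phases of 70 d that followed each other in a fixed order. They were a first concentrate diet with restricted grass silage (H1), freshly cut grass (ZG) and the same concentrate diet again (H2). Diet and age therefore cannot be told apart in comparisons with ZG. H1 and H2 shared the diet and differed in age and in the feed given before. Within breed and phase the steers at the extremes of residual feed intake (RFI), the feed eaten beyond that predicted from body weight and gain, were classed as efficient (L-RFI) or inefficient (H-RFI).

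Muscle fibres are not myeloid cells, and a biopsy takes with the fibres the resident macrophages and whatever blood its vessels hold. LYZ encodes lysozyme, which cleaves bacterial cell walls and is known as a product of monocytes and macrophages. CSF3R encodes the receptor for granulocyte colony-stimulating factor, the cytokine that drives neutrophil production. S100A12 encodes a calcium-binding protein of neutrophil cytoplasm that acts as an inflammatory signal when released. PLEK encodes pleckstrin, a protein kinase C substrate known best from platelets and found in leukocytes too. In bulk muscle RNA, fewer cells of a type and less RNA per cell cannot be told apart. Cattle carry several lysozyme genes alike in sequence, and reads shared between such copies would not have been counted, so the LYZ level is uncertain to that extent.

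Of 111 libraries 104 were kept, from 77 steers. Those left out were 6 libraries with under 1000000 counts on genes and 1 CH-ZG H-RFI library with 13818659, of which the levels are given further on. The 12 groups of breed, phase and RFI class held 7 to 11 libraries each. Depth ran from 2201765 to 52552057 counts with a median of 15852100, and the median was 15790700 in CH and 16020300 in HF. Levels are given as counts per 1000000 counts on genes (CPM), which compare libraries for 1 gene but not 1 gene with another, since gene length is not taken into account. The 4 transcripts were scarce. The median library held 14.5 counts of LYZ, 18 of CSF3R, 13.5 of S100A12 and 28.5 of PLEK. A total of 18, 14, 19 and 4 libraries held 3 counts or fewer of LYZ, CSF3R, S100A12 and PLEK, and 3 counts correspond to 0.189 CPM at the median depth.

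LYZ, CSF3R and S100A12 were present at higher levels in HF than in CH muscle, and PLEK at a higher level in CH muscle. LYZ had a lowest, median and highest level of 0, 0.699 and 13.6 CPM over the 49 CH libraries and 0.0585, 1.98 and 34.4 CPM over the 55 HF libraries. CSF3R had 0.041, 0.623 and 14.4 CPM in CH and 0, 1.94 and 35.3 CPM in HF. S100A12 had 0, 0.570 and 10.2 CPM in CH and 0.0647, 1.27 and 26.2 CPM in HF. The median was higher in HF for these transcripts, while the ranges of the breeds overlapped almost throughout. PLEK had 0.141, 2.01 and 12.7 CPM in CH against 0.213, 1.30 and 4.16 CPM in HF. Its order was the opposite one, again with ranges that overlapped.

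**Figure D1:**
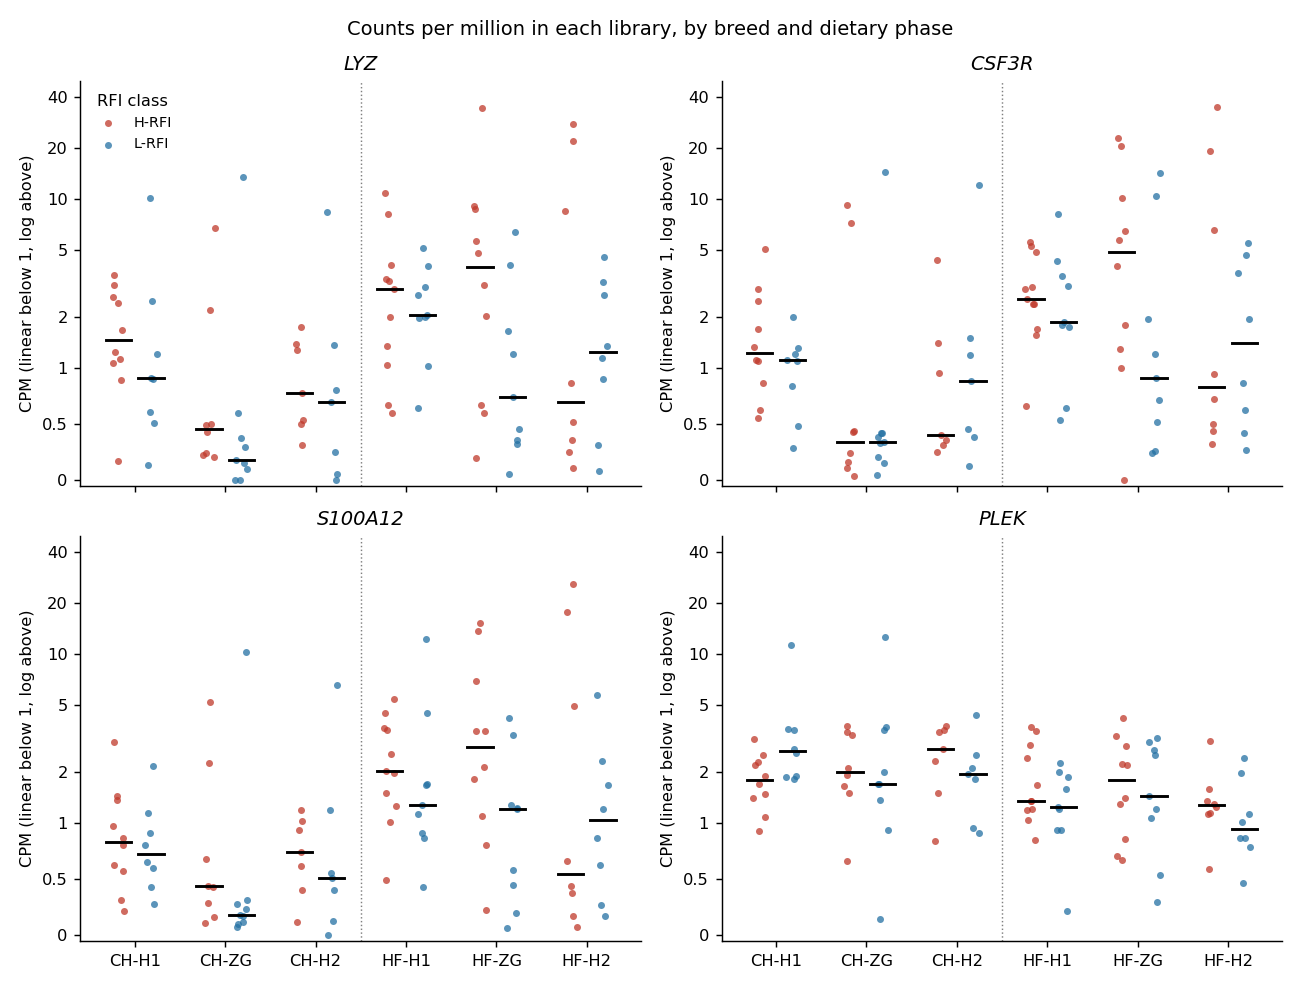
Level of each transcript in each of the 104 libraries (points, CPM on an axis that is linear below 1 and logarithmic above), by breed and phase, with H-RFI and L-RFI libraries side by side and bars at the group medians. A few libraries reach 10 CPM or more of LYZ, CSF3R and S100A12 in groups whose medians lie under 5 CPM, and PLEK stays within a narrower range apart from 2 CH libraries at 11.3 and 12.7 CPM.

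Ordered by mean log2(CPM + 0.5), the 3 HF groups of phase lay above the 3 CH groups for LYZ, CSF3R and S100A12, and the 3 CH groups lay above the 3 HF groups for PLEK. For LYZ the order was HF-H1 with a mean of 1.53 (SD 0.93, n = 20), HF-ZG 1.34 (SD 1.61, n = 19), HF-H2 1.16 (SD 1.77, n = 16), CH-H1 0.92 (SD 0.99, n = 18), CH-H2 0.39 (SD 1.03, n = 14) and CH-ZG 0.13 (SD 1.33, n = 17). S100A12 had the same order, from 1.31 (SD 0.95) in HF-H1 to 0.08 (SD 1.22) in CH-ZG. CSF3R differed from it only in that HF-ZG, at 1.63 (SD 1.73), stood before HF-H1, at 1.56 (SD 0.82). In the 3 orders CH muscle on cut grass stood last. PLEK ran from 1.47 (SD 0.67) in CH-H1 to 0.77 (SD 0.49) in HF-H2. No group differed from its neighbour in the order beyond the spread, since each gap was below the smaller of the SDs of the neighbours.

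The breed comparison asked whether beef and dairy muscle differ in these transcripts, and it was fitted by limma voom with the steer as a block. A gene was called at a Benjamini-Hochberg adjusted p under 0.1 with a fold above 1.5. Averaged over the 3 phases, all 4 transcripts were called, where 2.84% of 12115 genes were called (344 genes, 2.47% higher in HF and 0.371% lower). CSF3R was 2.49-fold higher in HF, a log2 fold change of 1.32 (SE 0.34, adjusted p = 0.010). S100A12 was 2.34-fold higher, 1.23 on the log2 scale (SE 0.33, adjusted p = 0.012). LYZ was 2.07-fold higher, 1.05 (SE 0.33, adjusted p = 0.041). PLEK was 1.61-fold lower in HF, with a log2 fold change of -0.69 (SE 0.16, adjusted p = 0.0040). With each of the 77 steers left out in turn, the 4 calls held in every fit, the log2 fold changes running from 1.17 to 1.46 for CSF3R, from 1.07 to 1.34 for S100A12, from 0.89 to 1.17 for LYZ and from -0.73 to -0.60 for PLEK. With the 7 left-out libraries added back, LYZ was no longer called, at 0.91 and an adjusted p of 0.153. They include the CH library of steer 571, not left out for depth, whose LYZ level was above that of every kept CH library. Its part in this change was not tested. The average over phases was added after the values for single phases had been seen.

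Within single phases none of the 4 transcripts was called, although each kept its direction in each phase. The libraries of H1 gave log2 fold changes, HF minus CH, of 0.92 (SE 0.48) for LYZ, 1.05 (SE 0.51) for CSF3R, 1.22 (SE 0.49) for S100A12 and -0.64 (SE 0.25) for PLEK, with adjusted p from 0.42 to 0.66. On cut grass the values were 1.33 (SE 0.57), 1.83 (SE 0.59), 1.58 (SE 0.55) and -0.76 (SE 0.26), with adjusted p from 0.102 to 0.231. In H2 they were 0.90 (SE 0.62), 1.08 (SE 0.63), 0.87 (SE 0.60) and -0.67 (SE 0.30), with adjusted p from 0.52 to 0.79. The calls over all genes were 32 (0.264%) in H1, 158 (1.3%) in ZG and 19 (0.157%) in H2. A test of whether the breed difference varied with phase called 0 of 12115 genes (0%) by limma, with 529 at an unadjusted p under 0.05, and its unadjusted p was 0.82 for LYZ, 0.54 for CSF3R, 0.66 for S100A12 and 0.95 for PLEK. The ZG result turned on single animals. CH steer 318 had 13.6 CPM of LYZ, 14.4 of CSF3R and 10.2 of S100A12 on cut grass. Without it all 4 transcripts were called in ZG, with CSF3R at 2.14 and an adjusted p of 0.034 by limma. More genes over the whole set passed the p threshold in that fit too. LYZ stood 724th by p there with an adjusted p of 0.088, whereas CSF3R stood 302nd with 0.102 in the fit of all steers. PLEK moved only from -0.76 to -0.81. The calls are therefore not particular to these transcripts. In all, 55 of the 77 steers left 0 calls when removed and 22 left at least 1.

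**Figure D2:**
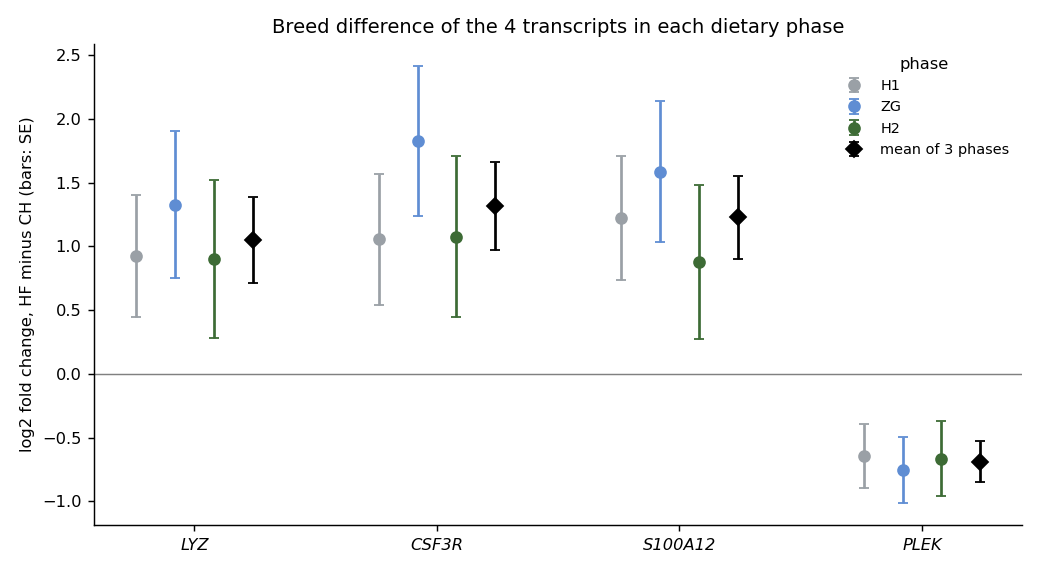
Log2 fold change of each transcript, HF minus CH, in each phase (circles) and averaged over the phases (diamonds), with bars of 1 standard error from the limma voom fit of 104 libraries. LYZ, CSF3R and S100A12 lie between 0.87 and 1.83 above zero in every phase, and PLEK lies between -0.76 and -0.64.

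Markers of other blood cells were higher in HF as well, and so were adipocyte genes. The 159 genes for which the study's own lists give a name, a set the study picked on these libraries, held 23 of the 187 genes of the cell type and pathway lists used here, LYZ among them. Of 6 pan-leukocyte genes 6 were called higher in HF, where 2.47% of all genes were. Their median log2 fold change was 0.94 against 0.0006 over all genes. PTPRC, the CD45 antigen of all leukocytes, was higher by 1.00 (SE 0.32, adjusted p = 0.042). CD53, a leukocyte tetraspanin, was higher by 1.08 (SE 0.26, adjusted p = 0.0047). The other lists also held members called higher in HF, among them the T cell genes CD3E (0.83) and ZAP70 (0.89), the neutrophil gene VNN2 (0.67), the platelet tubulin TUBB1 (1.53) and the adipocyte genes CIDEC (1.25) and FABP4 (1.61). The macrophage protease CTSS was at 0.55 (adjusted p = 0.055), under the fold that a call required. None of 6 plasma protein genes was called, their median being 0.81. The summed pan-leukocyte level ran from 1.32 to 68.0 CPM with a median of 7.46 in CH and from 1.51 to 172.0 CPM with a median of 16.8 in HF. HBD, a globin gene of red cells outside these lists, was at 0 in 49 of 49 CH and 53 of 55 HF libraries. The erythroid list, which holds the globin HBB, had no gene with a name, so the red cell content of the biopsies was not assessed. PLEK was thus lower in HF, where the 6 pan-leukocyte genes and TUBB1 were higher. The part of the leukocyte content of the biopsies in the breed difference was not tested.

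Of the pathways around these proteins, the lists for granulocyte colony-stimulating factor signalling and for calgranulin receptors each had 1 gene with a name. CEBPD, a transcription factor induced downstream of the receptor, was at 0.35 (SE 0.16, adjusted p = 0.185) in HF minus CH. NFKBIA, the inhibitor of NF-kappa-B, was at -0.28 (SE 0.11, adjusted p = 0.107). Neither was called in this average. CEBPD was called in HF from H1 to ZG (0.92), and from ZG to H2 in CH (-0.97) and in HF, where it was 2.002-fold lower in H2. NFKBIA was called in HF minus CH in H1 (-0.70) and in HF from H1 to H2 (0.69). The lists of pleckstrin partners, B cell, endothelial, erythroid and skeletal muscle genes had no gene with a name. The tissue could therefore not be checked against the muscle or red cell markers of these lists.

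Change of phase left no call among the 4 transcripts in any of 6 phase comparisons. In CH muscle, grass after concentrate gave log2 fold changes of -0.82 (SE 0.58) for LYZ, -0.73 (SE 0.61) for CSF3R, -0.49 (SE 0.57) for S100A12 and 0.24 (SE 0.25) for PLEK, where 2.03% of genes were called. From grass to the second concentrate phase the values in CH were 0.38 (SE 0.66), 0.59 (SE 0.68), 0.49 (SE 0.64) and -0.13 (SE 0.27), with 0.924% of genes called. The adjusted p of these changes lay between 0.40 and 0.99, and the lower CH levels on grass thus did not pass the test. In HF muscle the changes from H1 to ZG lay between -0.42 and 0.13, where 0.644% of genes were called. Those from ZG to H2 lay between -0.22 and -0.04, where 6.96% were called. Between the concentrate phases, the HF values were -0.46 (SE 0.49) for LYZ, -0.12 (SE 0.50) for CSF3R, -0.35 (SE 0.48) for S100A12 and 0.09 (SE 0.28) for PLEK, with 17.2% of genes called. In CH muscle the same comparison gave -0.44 (SE 0.60), -0.14 (SE 0.62), -0.00 (SE 0.59) and 0.11 (SE 0.26), with 2.81% called. By edgeR and DESeq2 without the steer as block, CSF3R in CH turned to 0.59 and 0.55 from H1 to ZG and to -0.37 and -0.29 from ZG to H2, without a call, and several other changes turned likewise. The 4 transcripts stayed without a call in HF-H2 against HF-H1, where 2084 genes passed.

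The comparison of L-RFI with H-RFI steers addressed feed efficiency, and was made within breed and phase by edgeR's quasi-likelihood test on genes with at least 1 CPM in 50% of the libraries. That filter admitted the 4 transcripts in HF-H1 and HF-ZG, LYZ, CSF3R and PLEK in CH-H1, LYZ and PLEK in HF-H2, and PLEK alone in CH-ZG and CH-H2. No gene was called in any of the 6 comparisons (0%), while 72 to 1228 genes had an unadjusted p under 0.05. By edgeR's exact test 0 to 2 genes were called per comparison and by DESeq2 0 to 2, none of them a member. The paper, by an exact test with the same thresholds, did list S100A12 as lower in L-RFI steers in HF-ZG. The cause of this difference from the paper was not tested.

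In HF-ZG, LYZ had a lowest, median and highest level of 0.20, 3.94 and 34.4 CPM in H-RFI and 0.0585, 0.742 and 6.36 CPM in L-RFI steers. S100A12 had 0.222, 2.81 and 15.3 CPM in H-RFI and 0.0647, 1.21 and 4.20 CPM in L-RFI steers. CSF3R had 0, 4.87 and 23.1 CPM in H-RFI and 0.239, 0.907 and 14.3 CPM in L-RFI steers. The H-RFI medians were the higher ones, and the classes overlapped over most of their range. LYZ gave a log2 fold change, L-RFI minus H-RFI, of -1.55 (SE 0.75, unadjusted p = 0.051, adjusted p = 0.381 by edgeR). S100A12 gave -1.28 (SE 0.65, unadjusted p = 0.060, adjusted p = 0.381 by edgeR), and CSF3R gave -0.38 (SE 0.82). In 1 limma fit of all groups with the steer as block the values were -1.94, -1.80 and -1.73 in the same order (adjusted p = 0.345 each). PLEK, with medians of 1.80 and 1.44 CPM, gave 0.11 (SE 0.36).

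These HF-ZG values depended on the fit and on single steers. By limma voom with sample quality weights, LYZ was at -2.25 (adjusted p = 0.036), CSF3R at -2.43 (adjusted p = 0.034) and S100A12 at -2.60 (adjusted p = 0.027), and all 3 were called, where 16.5% of 10571 genes were called. Without H-RFI steer 1639 edgeR gave -0.83 for LYZ and -0.07 for CSF3R, and without L-RFI steer 2064 it gave -2.10 and -1.69. For S100A12 these fits gave -0.97 and -1.74. The 6 pan-leukocyte genes had a median of -1.14 in the same comparison with 0 called, and the 6 plasma protein genes one of -2.32 with 0 called. Their part in the RFI values was not tested.

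In HF-H2, LYZ was at -1.56 (SE 0.90, adjusted p = 1.00), and at -0.57 in the fit of all groups with the steer as block. The 8 H-RFI steers there ran from 0.108 to 27.8 CPM with a median of 0.692, and the 8 L-RFI steers from 0.0846 to 4.54 CPM with a median of 1.24. The fold change and the medians had opposite directions, as 3 H-RFI libraries lay far above the rest. In HF-H1 LYZ was at -0.13 (SE 0.42), CSF3R at 0.29 (SE 0.40), S100A12 at 0.53 (SE 0.50) and PLEK at -0.21 (SE 0.29).

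In CH-H1 PLEK was the transcript with the lowest p. It had a lowest, median and highest level of 0.926, 1.79 and 3.13 CPM in 10 H-RFI steers and 1.81, 2.67 and 11.3 CPM in 8 L-RFI steers. All 8 L-RFI steers lay above the H-RFI median, but the classes overlapped. The log2 fold change was 0.86 (SE 0.33, unadjusted p = 0.015, adjusted p = 1.00 by edgeR). It was 0.45 without L-RFI steer 1831, the library at 11.3 CPM. In CH-ZG, where the same steer had 12.7 CPM, PLEK was at 0.78 (SE 0.54) by edgeR and at 0.10 with sample quality weights, and in CH-H2, to which that steer gave no library, it was at -0.40 (SE 0.42). CSF3R in CH-H1 was at -0.94 (SE 0.48) and LYZ at 0.12 (SE 0.55), the latter at -0.90 without L-RFI steer 1797.

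Averaged over the 6 comparisons in 1 fit with the steer as a block, L-RFI minus H-RFI was -0.66 (SE 0.33) for LYZ, -0.38 (SE 0.34) for CSF3R, -0.52 (SE 0.32) for S100A12 and 0.08 (SE 0.16) for PLEK. The unadjusted p for LYZ was 0.046 and its adjusted p 0.60 by limma. No gene was called (0%), with 793 of 12115 at an unadjusted p under 0.05. Whether the RFI difference varied among the 6 comparisons was tested as well, and the unadjusted p ran from 0.36 to 0.40 for the 4 transcripts, with 0 genes called and 175 at an unadjusted p under 0.05.

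**Figure D3:**
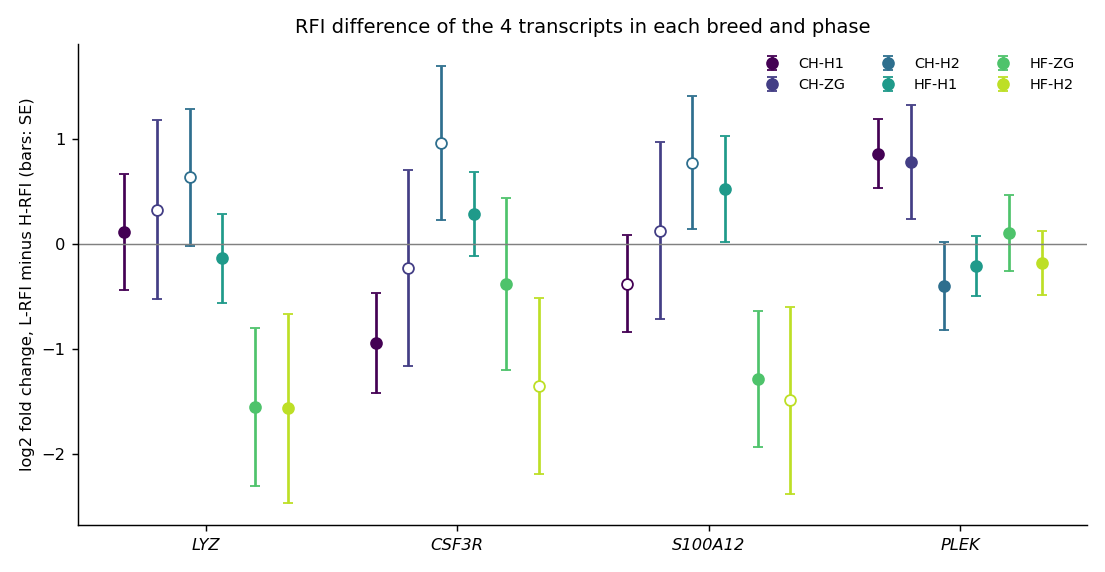
Log2 fold change of each transcript, L-RFI minus H-RFI, in each breed and phase by edgeR, with bars of 1 standard error. Filled points passed the filter on low counts, and open points did not and come from the fit without a filter. The points of LYZ, CSF3R and S100A12 scatter on both sides of zero, with the 2 lowest of LYZ in HF-ZG and HF-H2 at -1.55 and -1.56, and those of PLEK run from -0.40 to 0.86.

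LYZ, CSF3R and S100A12 varied together from steer to steer, and PLEK had only a low r with them. For each of the 77 steers the earliest library was taken, and log2(CPM + 0.5) was set relative to the mean of its group of breed, phase and RFI class. CSF3R and S100A12 had a Pearson r of 0.91 and a Spearman rho of 0.86. LYZ had an r of 0.86 and a rho of 0.80 with S100A12, and an r of 0.82 and a rho of 0.75 with CSF3R. Each of these had a two-sided permutation p of 1e-05, the smallest that 100000 permutations can give, and 2e-05 adjusted over the 6 pairs. Without the 2 steers farthest from the median of the first gene, r was 0.89, 0.82 and 0.78 in the same order. The depth of the library had an r of 0.26 to 0.36 with the 4 transcripts, and its part in these relations was not tested.

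PLEK had an r of 0.31 with LYZ (rho 0.38, permutation p = 0.0069, adjusted p = 0.010), of 0.22 with S100A12 (adjusted permutation p = 0.073) and of 0.19 with CSF3R (adjusted permutation p = 0.105). The permutations compare r with zero and not with other genes. Over all 104 libraries the median gene had an r of 0.42 with LYZ, 0.27 with S100A12 and 0.25 with CSF3R, each above the value of PLEK. On CPM with TMM factors the r of PLEK became 0.07, 0.05 and 0.01, whereas the pairs among the others kept 0.90, 0.83 and 0.78. Without CH steer 1831, the r of PLEK on plain CPM was 0.37, 0.26 and 0.24, with adjusted permutation p of at most 0.036.

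**Figure D4:**
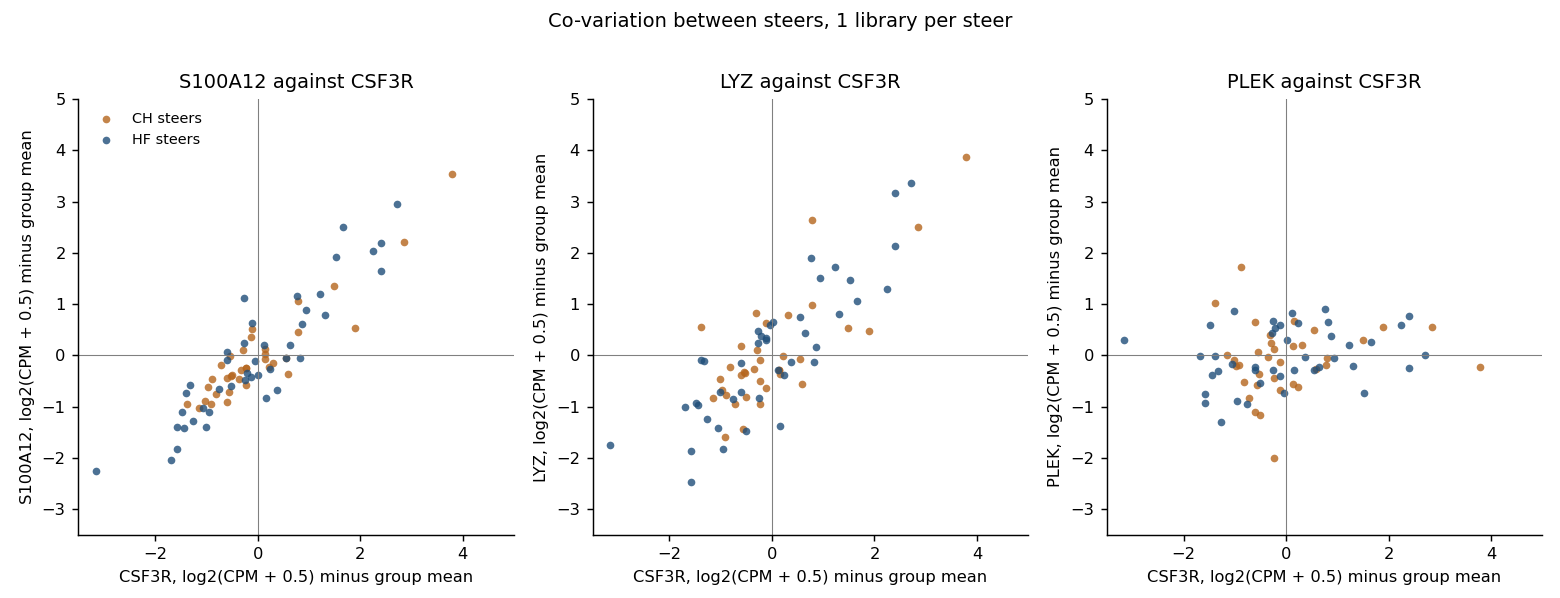
Level of S100A12, LYZ and PLEK against that of CSF3R in the 77 steers, 1 library per steer, as log2(CPM + 0.5) minus the mean of the group. S100A12 and LYZ line up with CSF3R at r of 0.91 and 0.82 over the steers of both breeds together, and PLEK spreads around zero at r of 0.19.

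Within single groups of breed and phase, CSF3R and S100A12 kept an r of 0.75 to 0.97, lowest in HF-H1 and highest in HF-H2. LYZ with CSF3R ran from 0.60 in CH-H1 to 0.94 in HF-H2, and LYZ with S100A12 from 0.70 in CH-H1 to 0.94 in HF-H2. In CH-H2 the LYZ relations rested on 2 steers, as r fell to 0.20 with CSF3R and to -0.02 with S100A12 without them. In CH-ZG the r of LYZ with S100A12 was 0.94, but rho was 0.22. The median LYZ level there was 0.299 CPM, and steer 318 stood far above it. PLEK with LYZ ran from -0.03 in CH-H1 to 0.53 in HF-ZG.

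The lists of blood cell genes followed the same transcripts across the 77 steers. These r are given as a description, without a test. The summed pan-leukocyte level had an r of 0.92 with LYZ, 0.83 with CSF3R, 0.85 with S100A12 and 0.35 with PLEK. LYZ had an r of 0.94 with PTPRC. FCN1, a monocyte and neutrophil ficolin, had 0.71, 0.84 and 0.87 with LYZ, CSF3R and S100A12. CTSS, in contrast, had 0.72 with LYZ but 0.44 with CSF3R and 0.47 with S100A12, and its 0.45 with PLEK was the highest of the listed genes. The T cell gene CD3E reached 0.77, 0.78 and 0.82, and TUBB1 of platelets 0.74, 0.86 and 0.87, against 0.13 and 0.23 with PLEK. The summed plasma protein level had 0.0798 or less with each of the 4, and the adipocyte level 0.122 or less. PLEK thus had a lower r than the other transcripts with the leukocyte genes and with TUBB1, except that its r with CTSS was above that of CSF3R.

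Over 104 libraries and 12114 other genes, by Pearson r of the same values relative to the group means, the genes with the most similar pattern among those with a name were PTPRC (r = 0.94), SRGN (0.91) and BIN2 (0.91) for LYZ, where the median over all genes was 0.42. For CSF3R the most similar gene was SDS (0.95), against a median of 0.25. S100A12 had 0.90 with CSF3R, against a median of 0.27. Genes without a name stood among them, ENSBTAG00000046324 in second place for LYZ (0.92) and ENSBTAG00000006505 in first place for S100A12 (0.91). The genes nearest to PLEK reached only 0.54, against a median of 0.27, and the first 5 of them had no name in the study's lists. ENSBTAG00000018671 stood first.

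A small number of libraries carried much of the signal. The 10 highest libraries held 51.3% of the summed CPM of LYZ, 51.1% of CSF3R and 52.1% of S100A12, but 25.2% of PLEK. The highest library was 31.2-fold, 30.5-fold, 29.5-fold and 7.45-fold above the median library for LYZ, CSF3R, S100A12 and PLEK. The SD of log2(CPM + 0.5) within groups was 1.31, 1.34, 1.18 and 0.69. Of the 10 highest libraries, 7 were shared by LYZ, CSF3R and S100A12, while PLEK shared 2, 1 and 2 with them. HF steer 1639, of the H-RFI class, had 34.4 CPM of LYZ, 23.1 of CSF3R and 15.3 of S100A12 on cut grass with 50.5 CPM of PTPRC. In H2 it had 21.9, 35.3 and 26.2 CPM with 36.6 CPM of PTPRC. HF steer 5588, H-RFI as well, had 27.8, 19.1 and 17.7 CPM in H2 with 45.5 CPM of PTPRC. PLEK in these libraries was 3.29, 3.07 and 1.34 CPM, inside the range of the other HF libraries. The 3.07 CPM was the highest of the 16 HF-H2 libraries.

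CH steer 1831 showed the reverse picture. It had the highest PLEK levels of all 104 libraries, 11.3 CPM in H1 and 12.7 CPM on cut grass, with 0.505 and 0.154 CPM of LYZ, 0.288 and 0.384 of CSF3R and 0.649 and 0.384 of PTPRC. PLEK was thus high in both biopsies of this steer, while LYZ, CSF3R and PTPRC were below the medians of all CH libraries and CD3E was at 0.288 and 1.61 CPM. CH steer 322 changed between phases, from 0.139 CPM of LYZ, 0.486 of CSF3R and 0.278 of S100A12 in H1 to 8.41, 12.0 and 6.54 CPM in H2, whereas its PLEK level was 1.87 and 1.95 CPM.

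The 25 steers with more than 1 kept library allowed a comparison of a steer with itself. Across their earlier and later libraries PLEK had an r of 0.57 (permutation p = 0.0032, adjusted p = 0.013 over the 4 transcripts) and a rho of 0.41 (adjusted permutation p = 0.165). Without steer 1831 the r was 0.39 (permutation p = 0.059, adjusted p = 0.237) and the rho 0.41 (adjusted permutation p = 0.194). With the means of breed and phase subtracted in place of those of breed, phase and RFI class, and all 25 steers kept, r was 0.68 (adjusted permutation p = 0.0016) and rho 0.57 (adjusted permutation p = 0.012). LYZ had an r of 0.18, CSF3R 0.22 and S100A12 0.14, with adjusted permutation p of 0.50 each. These rested on steer 1639, without which they were -0.11, 0.0008 and -0.23. In the limma fit the correlation of libraries of the same steer was 0.45 for PLEK, higher than for 93.8% of genes, against a median over all genes of 0.10. It was 0.25 for LYZ, 0.12 for CSF3R and 0.17 for S100A12.

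**Figure D5:**
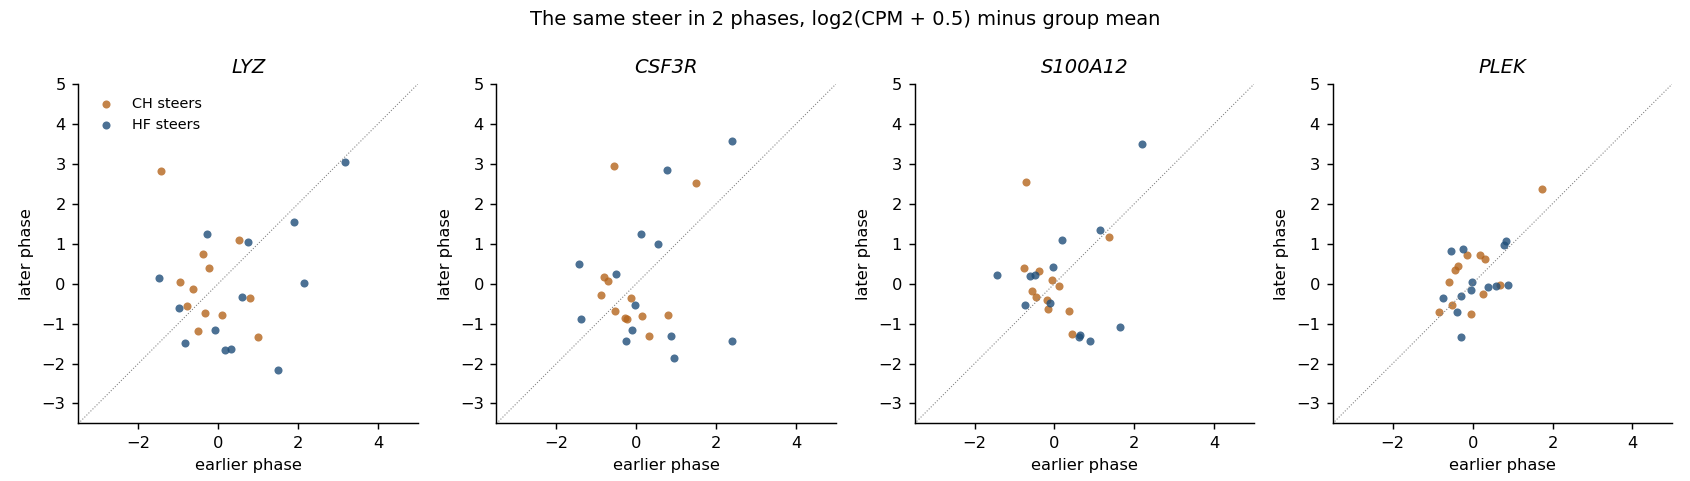
Level of each transcript in the later phase against the earlier phase for the 25 steers with more than 1 library, as log2(CPM + 0.5) minus the mean of the group, with the line of equality dotted. LYZ, CSF3R and S100A12 scatter widely at r of 0.14 to 0.22, and PLEK lies nearer the line at r of 0.57, with CH steer 1831 at the upper right.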

How the data were processed

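M. longissimus biopsies were sequenced as stranded poly(A) libraries. The authors aligned the reads with STAR (2.5.1 per the labels) and deposited raw counts per Ensembl gene. The labels name UMD3.1 and the paper another assembly, so no coordinates are given. Reverse-strand counts were used (median 99.0% of stranded counts). Rows naming no gene took a median of 12.9% and were left out of library sizes. Members, lists and comparisons were chosen with earlier results of these data known. Levels are CPM of gene counts. Named genes were the members, the listed markers and the genes most similar to each member. Nothing in the labels gives a sequencing batch.

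RFI was tested by edgeR 4.0.16 (TMM, quasi-likelihood, at least 1 CPM in 50% of libraries). Breed and phase were tested by limma 3.58.1 voom with 12 group means (at least 0.5 CPM in 25%) and the steer as block, since libraries of a steer come from 1 animal (consensus correlation 0.108). Of 77 steers, 8 had libraries in both RFI classes. Alternatives were DESeq2 1.42.0, edgeR's exact test, sample weights, other filters, scaling and pseudocounts, and leaving out each steer. Within breed and phase, steers were left out of the RFI tests in HF-ZG and CH-H1 only. The scripts were tested on simulated data. The 3-count limits cover counting error only, while the standard errors come from the fits and also take in the spread between libraries. One gene of the lists is not reported here.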

Additional observations from a re-analysis of the deposited data

Results flagged for a closer look

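In 6 of 44 sets of one transcript in one group of 4 to 10 libraries, the library at one end lay apart from the others by more than Dixon's 95% critical value, where chance gives about 1 set in 20. CH steer 318 (L-RFI, ZG) accounted for 3 of them, with 13.6 CPM of LYZ, 14.4 CPM of CSF3R and 10.2 CPM of S100A12, against next highest values of 0.595, 0.422 and 0.312 CPM. These rest on 232, 246 and 175 counts, and the PTPRC level of the library was 22.8 CPM. CSF3R in CH steer 322 (L-RFI, H2) was 12.0 CPM, against 1.51 CPM in the next. PLEK in CH steer 1831 (L-RFI, H1) was 11.3 CPM from 157 counts, against 3.58 CPM in the next. PLEK in HF steer 2259 (L-RFI, H1) was the lowest of its group at 0.213 CPM, a value that rests on 1 count, against 0.934 CPM in the next.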

How the results depend on the processing

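The call of the 4 transcripts in HF against CH, averaged over phases, held under other scaling, other filters, edgeR, DESeq2 and no replicate block, except that LYZ was at 0.91 (adjusted p = 0.153) with all libraries and that S100A12 did not enter under the filter of 1 CPM in 50%. In ZG alone the members called were 0, but 1 by edgeR without the block (PLEK -0.95), 2 by DESeq2 (CSF3R 1.43, PLEK -0.87), 1 with RLE size factors (CSF3R 1.88), 1 under the filter of 1 CPM in 50% (CSF3R 1.96) and 0 to 4 with a steer left out. With 3 members called in HF-ZG, sample quality weights gave the only RFI calls among the members. Over all genes, calls ran from 136 to 584 for the breed average (344 above), from 13 to 84, 7 to 664 and 1 to 92 for breed in H1, ZG and H2, and for RFI from 0 to 504 in CH-ZG and 0 to 1742 in HF-ZG. In the phase comparisons they ran from 48 to 420 (ZG minus H1), 46 to 125 (H2 minus ZG) and 58 to 393 (H2 minus H1) in CH, and from 15 to 129, 361 to 981 and 1352 to 2277 in HF. Without the steer as block no call of a member changed in limma, and only LYZ from ZG to H2 in HF changed sign, to 0.015. With any steer left out, no member was called in a phase comparison.

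Several phase changes turned sign by edgeR and DESeq2 without the block, none with a call. In CH, ZG minus H1 became 0.59 and 0.55 for CSF3R and 0.47 and 0.43 for S100A12. H2 minus ZG became -0.33 and -0.28 for LYZ, -0.37 and -0.29 for CSF3R and -0.35 and -0.33 for S100A12. H2 minus H1 became 0.22 and 0.25 for CSF3R and 0.12 and 0.10 for S100A12, the latter also 0.052 with all libraries. In HF, ZG minus H1 became 0.19 and 0.27 for LYZ, and 0.052 for S100A12 by DESeq2. H2 minus ZG became 0.28 and 0.23 for LYZ and 0.41 and 0.38 for S100A12. H2 minus H1 became 0.48 and 0.50 for LYZ, 0.70 and 0.73 for CSF3R and 0.39 and 0.43 for S100A12. The cause was not tested.

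For RFI, 1 fit of all groups with the replicate block gave CH-H1, CH-ZG and CH-H2 values of -0.59, -0.82 and -0.18 for LYZ, with 0.14 in HF-H1. It gave S100A12 a value of -1.04 for CH-ZG and of -0.0044 for HF-H1, each opposite in sign to the separate fits. Sample quality weights gave -0.90 for LYZ in CH-H1 and -0.059 for S100A12 in HF-H1, and all libraries without a filter gave -1.01 for LYZ and -0.25 for S100A12 in CH-ZG. With a steer left out, CH-H1 ran from -0.90 to 0.30 for LYZ and from -0.62 to 0.12 for S100A12, and PLEK in HF-ZG from -0.028 to 0.29. The r of LYZ with PLEK was 0.073 with TMM factors. That of CSF3R with PLEK was 0.24 with all libraries (adjusted permutation p = 0.034). Without steer 1639 or 1831, r ran from 0.15 to 0.24 for CSF3R with PLEK and from 0.18 to 0.26 for S100A12 with PLEK, and within steers from -0.11 to 0.17 for LYZ, from -0.23 to 0.13 for S100A12 and from 0.39 to 0.56 for PLEK. DESeq2 was not run for the tests of several contrasts at once. The fits without steers 1639 and 1831, without each steer in the breed and phase comparisons, and the breed average were chosen after seeing the data. Depth limits LYZ, CSF3R and S100A12 most, with 3 counts or fewer in 14 to 19 of 104 libraries.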

Other observations

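The CH-ZG H-RFI library that was left out, of steer 571, held 27.6 CPM of LYZ, 3.33 CPM of CSF3R, 6.30 CPM of S100A12 and 9.70 CPM of PLEK. Its LYZ level was above that of every kept CH library, and its PLEK level was below only those of steer 1831. The 6 libraries left out for depth held 0 to 2 counts of each transcript.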
